A study of Mus musculus with 6 samples.

Results

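The creatine kinase system of the heart was described here through 6 genes chosen by name from the 54532 genes of the deposited table: the creatine kinases Ckm, Ckb and Ckmt2, the creatine transporter Slc6a8, and the creatine-synthesis enzymes Gatm and Gamt. All 6 were found, and 5 of them (all but Gatm) were abundant enough to be tested. RNA came from the myocardium of wild-type C57BL/6 mice aged 18 weeks whose hearts were hypertrophic. A control group of 3 libraries had been given AAV9-EGFP, a virus vector for a fluorescent protein, and a group of 3 libraries had been given AAV9 encoding anti-miR-199a tough decoys (TuDs), which are RNA hairpins that sequester a microRNA. The comparison therefore asks how these transcripts stood when miR-199a was targeted in an already hypertrophic heart. The labels name no promoter for either vector, and they leave out sex, the way hypertrophy was produced, viral dose and whether each library is a different animal, so the p-values measure only the spread between these libraries.

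Creatine kinase moves phosphate reversibly between ATP and creatine. In heart muscle the mitochondrial enzyme charges creatine at the site of ATP production, and the cytosolic enzymes recharge ADP beside myosin and the ion pumps. Cardiomyocytes make little creatine themselves and take it up from blood through Slc6a8, while the synthesis enzymes Gatm and Gamt are best known from kidney, pancreas and liver. In mammals the cytosolic enzyme is a dimer of M (Ckm) and B (Ckb) subunits, and a larger share of B subunits is a textbook feature of fetal and of overloaded myocardium.

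In the TuD hearts the transporter Slc6a8 fell by 27.4%, and it was the only one of the 5 tested genes that passed the test. Ckm, the dominant cytosolic creatine kinase, stood 21.6% lower in the TuD group with no overlap between the groups, but missed the threshold (adjusted p = 0.0528). Ckb, Ckmt2 and Gamt had estimates of either sign with intervals that included 0. Of all 10460 genes tested, 29.3% passed, 15.0% higher and 14.3% lower, so 1 in 5 passing is near the background. The groups did not overlap for 2 of the 5 (Ckm and Slc6a8), or 40%, against 47.9% of all genes tested. The median log2 fold change was -0.05 over the 5 and 0.01 over all tested genes.

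The microRNA that the decoys address has 2 mature arms. Both are shown because the sample titles name miR-199a without an arm. In the sequences below (RefSeq, build GRCm38.p6, written 5′ to 3′) the capitals mark the seed, bases 2 to 8, which pairs with targets.
mmu-miR-199a-5p: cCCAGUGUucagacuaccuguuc
mmu-miR-199a-3p: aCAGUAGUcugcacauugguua
The 2 arms do not share a seed. Both are made from the same hairpins, Mir199a-2 on chromosome 1 (5p arm at 162217844-162217866 and 3p arm at 162217883-162217904, plus strand) and Mir199a-1 on chromosome 9 (5p arm at 21496537-21496559 and 3p arm at 21496498-21496519, minus strand).

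The longest annotated 3' UTR of each of the 6 genes was searched on the transcript strand for the seed complements ACACTGG (5p) and ACTACTG (3p). None of the 6 held either one. Ckm and Slc6a8 have long 3' UTRs (1455 and 1402 bases) and Gatm one of 1030 bases, while those of Ckb, Gamt and Ckmt2 are short (202, 166 and 142 bases). Among 9549 tested genes with an annotated 3' UTR, 15.1% held the 5p match and 7.82% the 3p match. Among 3' UTRs of a length similar to that of Ckm the shares were 16.8% and 7.30%, and for a length like that of Ckmt2 they were 1.51% and 0.602%. These letters are absent from these windows, and nothing further was read from that.

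Libraries held 18.0 to 18.2 M reads (M, megareads) in the controls and 15.2 to 16.7 M in the TuD libraries. Values below are normalised FPKM, the deposited fragments per kilobase of gene length and megaread divided by a scaling factor per library. The deposited FPKM did not follow these read sums alone. In it, 3 reads on a gene of 2 kb were worth 0.0783 in control replicate 1 (18.0 M reads) and 0.0976 in TuD replicate 1 (16.2 M reads). Transcripts from the Y chromosome were present in all 3 control libraries and in TuD replicate 3 (summed FPKM of 8.32 to 12.5) and nearly absent from TuD replicates 1 and 2 (0.0254 and 0.00711), so sex-linked and treatment differences cannot be told apart in those 2 libraries. Log2 fold changes also fell with gene length over all tested genes, with a median of +0.49 in the shortest 1046 genes and -0.17 in the longest 1046, and the 6 genes run from 1444 to 5210 bases. The labelled tissue was checked on 8 cardiomyocyte markers, which summed to 27810 to 29330 normalised FPKM in controls and to 30870 to 37499 in TuD libraries. 4 of the 8 passed as higher and none as lower, against 15.0% and 14.3% of all genes tested. With the length trend removed 4 passed as higher and Actc1 as lower (adjusted p = 0.0491), against 10.3% and 14.1%. Skeletal muscle, which shares Ckm and Ckmt2 with heart, was low throughout: its 10 markers summed to 16.2 to 30.0 in any library, Myh4 and Tnnc2 were at 0 in all libraries, and 1 of 3 tested (Tnni2) passed as higher. The mean level of Tnni2 was 0.407 in controls and 1.57 in TuD libraries. In whole tissue, fewer cells of a type and less RNA per cell cannot be told apart.

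**Figure D1:**
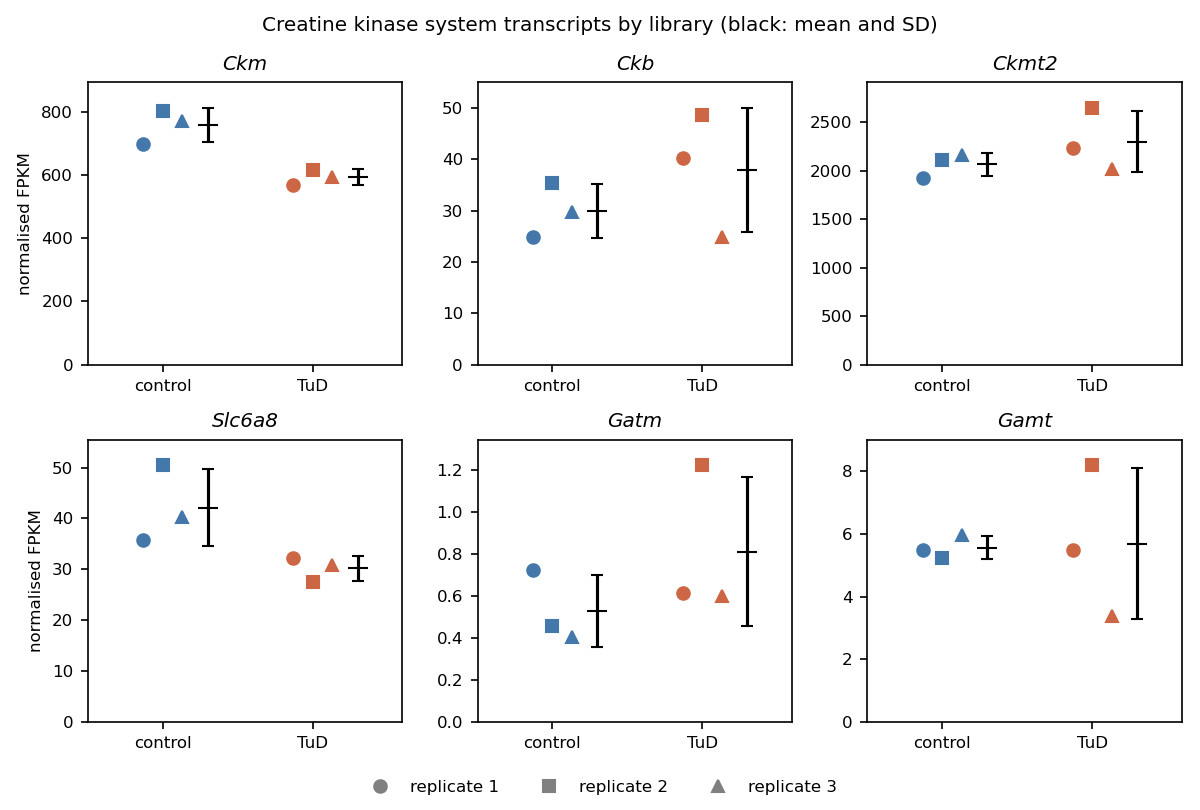
Normalised FPKM (y axes, from 0, separate scale for each gene) of the 6 genes in each library; blue points are control and orange points TuD libraries, shapes mark the replicate number, and black bars are the mean and SD of 3 libraries. The groups do not overlap for Ckm and Slc6a8, and the TuD libraries are widely spread for Ckb, Gamt and Gatm.

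Slc6a8 (ENSMUSG00000019558, chromosome X, 73673150-73682502, plus strand, mm10) encodes the sodium- and chloride-dependent transporter that brings creatine into the cardiomyocyte. Its level was 35.8, 50.4 and 40.2 normalised FPKM in control replicates 1, 2 and 3 and 32.2, 27.6 and 30.8 in TuD replicates 1, 2 and 3. Every TuD library lay below every control library, the nearest pair being control replicate 1 and TuD replicate 1. The mean fell from 42.2 ± 7.50 (SD, n = 3) to 30.2 ± 2.40 (SD, n = 3), a log2 fold change of -0.46 ± 0.14 (SE, limma adjusted p = 0.0403) with a 95% interval of the change from -42.0% to -9.25%. An exact permutation test over the 6 libraries, two-sided, gave p = 0.1, the smallest that 3 against 3 can give.

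The fall in Slc6a8 rests on a thin margin. It passed in 11 of 20 alternative analyses and failed in 9, always with a negative estimate. Leaving out 1 library ended the call for each library but control replicate 1 (adjusted p = 0.120, 0.0885, 0.0689, 0.107 and 0.0527 without control replicates 2 and 3 and TuD replicates 1, 2 and 3). Over all its alternatives the adjusted p ran from 0.00517 to 0.181. The gene lies on the X chromosome, and TuD replicates 1 and 2, which lack Y-linked transcripts (32.2 and 27.6), and TuD replicate 3, which carries them (30.8), lay on the same side of all controls. Within the libraries that carry Y-linked transcripts the difference of log2 values was -0.43 (adjusted p = 0.181), a value that rests on TuD replicate 3 alone.

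Ckm (ENSMUSG00000030399, chromosome 7, 19404776-19422841, plus strand) encodes the muscle-type subunit, which sits at the sarcomere's M-band and in the cytosol. Its level was 698, 803 and 771 normalised FPKM in the controls and 568, 617 and 594 in the TuD libraries. All 3 TuD libraries were below all 3 controls, and the gap between the groups exceeded the range within the TuD group but not the range within the controls. The means were 757 ± 53.4 and 593 ± 24.2 (SD, n = 3 each). The log2 fold change was -0.35 ± 0.12 (SE), with a 95% interval of the change from -34.8% to -5.72%, an unadjusted p of 0.0158 and an adjusted p of 0.0528 (limma). The exact permutation test again gave its smallest value, p = 0.1.

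The side of the threshold on which Ckm fell depended on the analysis. In 7 of 20 alternatives it passed, and its adjusted p ran from 0.00240 to 0.179 over all of them, each with a negative estimate. The estimate moved by over 1.5 times under 2 scalings, to -0.74 when FPKM was rescaled to TPM, which gives every library the same total (adjusted p = 0.00464), and to -0.80 under quantile normalization (adjusted p = 0.00240). TPM rescaling put the median over all tested genes at -0.36, and Ckm stood below that median. With the trend on gene length removed, the estimate was -0.41 (adjusted p = 0.0178).

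Ckb (ENSMUSG00000001270, chromosome 12, 111669361-111672338, minus strand) encodes the brain-type subunit, the form that is prominent in brain, smooth muscle and the fetal heart. Control libraries had 24.8, 35.4 and 29.7 normalised FPKM, and TuD libraries 40.3, 48.6 and 24.9. TuD replicates 1 and 2 were above every control, while TuD replicate 3 was level with the lowest control. The means were 30.0 ± 5.28 and 37.9 ± 12.0 (SD, n = 3 each), and the log2 fold change of +0.30 ± 0.24 (SE, limma adjusted p = 0.373) has a 95% interval of the change from -16.0% to +79.5%. The exact permutation test gave p = 0.4.

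The Ckb difference depended on single TuD libraries. Without TuD replicate 3 the log2 fold change was +0.57 and passed (adjusted p = 0.0334), and without TuD replicate 2 it was +0.10 (adjusted p = 0.775). Over all alternatives the adjusted p ran from 0.0334 to 0.775. Within the libraries with Y-linked transcripts, where TuD replicate 3 is the only TuD library, the sign turned to -0.25 (adjusted p = 0.439), and under TPM rescaling it was -0.087 (adjusted p = 0.768) against a median of -0.36 for all tested genes.

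Markers of cells that also make Ckb varied between the libraries as well. In normalised FPKM, the 5 smooth muscle markers summed to 161, 202 and 89.8 across TuD replicates 1, 2 and 3, the same order as Ckb. In the controls they summed to 158, 123 and 128, the reverse of the order of Ckb there (24.8, 35.4 and 29.7). The 5 endothelial markers kept the order of Ckb in the TuD libraries (197, 216 and 153) but not in the controls (165, 202 and 206). The 8 cardiomyocyte markers did the same, with 34389, 37499 and 30870 in the TuD libraries and 28399, 27810 and 29330 in the controls. The 6 nerve and glia markers did not: they summed to 15.3, 16.9 and 16.1 in the TuD libraries, with TuD replicate 3 in the middle, and to 12.2, 15.4 and 11.0 in the controls. Among tested markers, 1 of 4 smooth muscle genes (Smtn) passed as lower, against 14.3% of all tested genes. With limma 0 of 5 endothelial and 0 of 2 nerve and glia genes passed. In each of these lists 1 gene, Tek and Uchl1, had an unadjusted p under 0.05. Of the 4 atrial markers, 3 were highest in TuD replicate 3: Myl7 was at 90.8 normalised FPKM there and at 0.178 to 1.44 in every other library, Myl4 at 12.7 against 0.343 to 1.06, and Sln at 10.7 against 0 to 0.157. Nppa, the most abundant of the 4, was lowest there, at 99.6 against 121 to 367 elsewhere. The part of these cells in the Ckb levels was not tested.

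Ckmt2 (ENSMUSG00000021622, chromosome 13, 91853387-91876885, minus strand) encodes the sarcomeric mitochondrial creatine kinase of the intermembrane space, where it is coupled to ATP export. Among all tested genes it was the 23rd most abundant in the controls per length, ahead of Ckm at rank 61. Levels were 1931, 2115 and 2159 normalised FPKM in the controls and 2233, 2648 and 2023 in the TuD libraries. Here too the groups overlapped, with TuD replicates 1 and 2 above all controls and TuD replicate 3 inside their range. The means were 2068 ± 121 and 2301 ± 318 (SD, n = 3 each), with a log2 fold change of +0.15 ± 0.15 (SE, limma adjusted p = 0.485), a 95% interval of the change from -12.8% to +40.5% and an exact permutation p of 0.4.

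The direction of Ckmt2 was not settled by these data. The estimate turned negative under TPM rescaling (-0.24, adjusted p = 0.231), where the median over all tested genes was -0.36. It was also negative with the length trend removed (-0.16, adjusted p = 0.275). Within the libraries with Y-linked transcripts, where TuD replicate 3 is the only TuD library, it was -0.030. Under quantile normalization Ckmt2 passed as lower (-0.44, adjusted p = 0.0249). At 1486 bases Ckmt2 is among the shorter genes, on the side of the length range where log2 fold changes were higher. With the trend removed, the levels were 2205, 2345 and 2350 in the controls and 2074, 2203 and 1901 in the TuD libraries, so that each TuD library then lay below all controls.

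Gamt (ENSMUSG00000020150, chromosome 10, 80258151-80261012, minus strand) methylates guanidinoacetate to creatine, the last step of synthesis. Its level was 5.50, 5.22 and 5.97 normalised FPKM in the controls and 5.49, 8.19 and 3.37 in the TuD libraries, from 81 to 171 reads each. The control libraries lay within 1.14-fold of each other, whereas the TuD libraries spanned 2.43-fold, with replicate 2 above and replicate 3 below all controls. The means, 5.57 ± 0.380 and 5.68 ± 2.41 (SD, n = 3 each), were close. A log2 fold change of -0.05 ± 0.26 (SE, limma adjusted p = 0.904) left a 95% interval from -35.6% to +45.4%, and the exact permutation p was 0.8. Under TPM rescaling the median over all tested genes stood at -0.36. The Gamt estimate turned to +0.25 without TuD replicate 3 (adjusted p = 0.281). It was -0.43 under TPM rescaling (adjusted p = 0.155), -0.37 with the length trend removed (adjusted p = 0.261) and -0.33 without TuD replicate 2 (adjusted p = 0.252). Within the libraries with Y-linked transcripts the Gamt estimate was -0.65, a value that rests on TuD replicate 3 alone. None of the alternatives passed for Gamt, and their adjusted p reached 0.997.

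Gatm (ENSMUSG00000027199, chromosome 2, 122594467-122611303, minus strand) forms guanidinoacetate from arginine and glycine, the first and rate-limiting step. It was scarce, with 23 to 53 reads a library, and did not reach an FPKM of 1 in 3 libraries. Levels were 0.724, 0.455 and 0.403 normalised FPKM in the controls and 0.612, 1.22 and 0.601 in the TuD libraries. Control replicate 1 exceeded TuD replicates 1 and 3, and TuD replicate 2 was the highest of all. In a fit on all 22702 genes with any reads, the log2 fold change was +0.33 ± 0.23 (SE, limma adjusted p = 0.463), with a 95% interval on that scale from -0.22 to 0.88, and the exact permutation p was 0.3. On the log2 scale with 0.5 added, a fold change at so low a level is understated: with 0.1 added it was +0.51 (adjusted p = 0.459), and on the recovered reads +0.57 (adjusted p = 0.397). It was +0.15 under TPM rescaling and +0.12 without TuD replicate 2. Within the libraries with Y-linked transcripts it was +0.11, a value that rests on TuD replicate 3 alone. Outside that fit its adjusted p ran from 0.354 to 0.760.

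**Figure D2:**
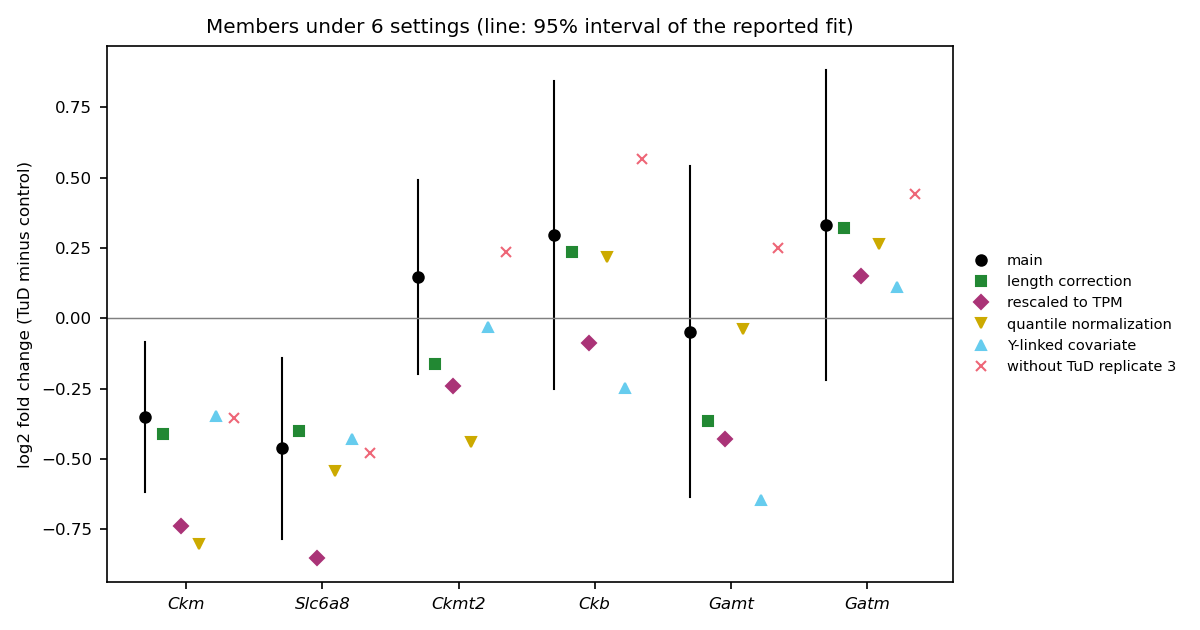
Log2 fold change (y axis, TuD minus control) of each gene in the reported fit (black point, with its 95% interval as a line) and in 5 alternatives (coloured symbols); for Gatm the black point is the fit without a filter on low values. Ckm and Slc6a8 are below 0 in all 6, whereas Ckmt2, Ckb and Gamt have points on both sides of 0.

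The ratio of Ckb to Ckm within a library is free of the scaling factor, and their gene lengths are nearly equal (2913 and 2895 bases). Their principal transcripts differ in length. With the length trend removed, Ckb was 25.7, 36.2 and 30.1 in the controls and 39.9, 46.6 and 24.6 in the TuD libraries. Ckm was then 721, 820 and 779 against 564, 591 and 587. Both genes moved in the same direction in each library, and their ratio changed little. Ckb made up 3.43%, 4.22% and 3.71% of the cytosolic creatine kinase level (Ckm plus Ckb, normalised FPKM) in the controls and 6.62%, 7.31% and 4.02% in the TuD libraries. TuD replicates 1 and 2 were above all controls, and TuD replicate 3 was within their range. The means were 3.79% ± 0.400 and 5.98% ± 1.73 (SD, n = 3 each), given with no test. Per length of the principal transcript, which is 2742 bases for Ckm and 1472 for Ckb, the same shares were 6.17%, 7.54% and 6.66% against 11.6%, 12.7% and 7.20%.

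The mitochondrial form took the larger share of the creatine kinase level in every library. Ckmt2 was 72.8%, 71.6% and 73.0% of Ckm, Ckb and Ckmt2 together in the controls and 78.6%, 79.9% and 76.6% in the TuD libraries, and the groups did not overlap. The ratio of Ckmt2 to Ckm was 2.76, 2.63 and 2.80 in the controls and 3.93, 4.29 and 3.41 in the TuD libraries. Removing the length trend narrowed this difference without closing it: the ratio was then 3.06, 2.86 and 3.02 against 3.68, 3.73 and 3.24. The summed level of the 3 kinases overlapped between groups, at 2654, 2952 and 2960 normalised FPKM in the controls and 2842, 3313 and 2642 in the TuD libraries. Its means were 2855 ± 174 and 2932 ± 344 (SD, n = 3 each).

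**Figure D3:**
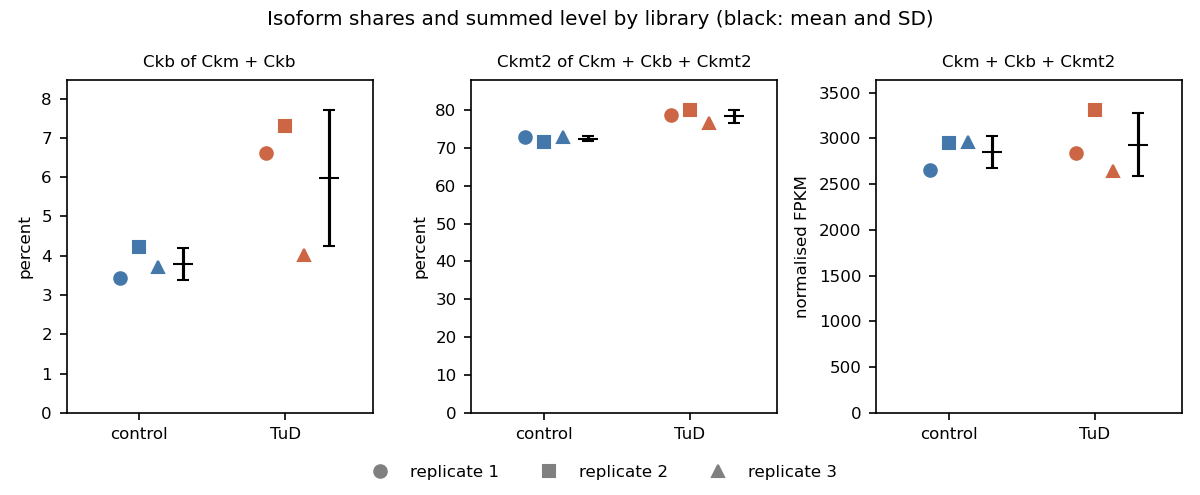
Ckb as a percent of Ckm plus Ckb (left), Ckmt2 as a percent of the 3 kinases (middle) and the summed level of the 3 kinases in normalised FPKM (right), each y axis from 0; colours and shapes are those of the plot of levels by library, and black bars are the mean and SD of 3 libraries. The share of Ckmt2 is higher in each TuD library (76.6% to 79.9%) than in each control (71.6% to 73.0%), the share of Ckb is higher in 2 of 3 TuD libraries, and the sums overlap.

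In the controls the order per gene length was Ckmt2, Ckm, Slc6a8, Ckb, Gamt and Gatm, and each neighbouring pair differed beyond its spread except Slc6a8 and Ckb, whose libraries met at 35.8 and 35.4. In the TuD libraries Slc6a8 (27.6 to 32.2) lay within the range of Ckb (24.9 to 48.6). The length used moves these levels but not their order: per length of the principal transcript, which has 3314 of the 5210 bases counted for Slc6a8, the control means were 66.3 for Slc6a8 and 59.0 for Ckb. The Ckm gene model also includes a short transcript of 1235 bases, at whose length Ckm would stand at 1786 in controls and 1399 in TuD libraries, still below Ckmt2.

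The longest exact run shared by the principal transcripts of the 3 kinases was 20 bases for Ckm and Ckb, 17 for Ckm and Ckmt2 and 15 for Ckb and Ckmt2. Their likeness over the whole length was not measured. The Ckb pseudogenes Ckb-ps1 and Ckb-ps2 were listed at 0 in all 6 libraries. Ckm and Ckmt2 are overlapped by the antisense genes A930016O22Rik and 1700119I11Rik. The strand setting of the counting is not given in the sources used here, so reads of such pairs cannot be told apart. The antisense genes were assigned 34 and 35 reads over the controls and the TuD group (A930016O22Rik) and 14 and 7 (1700119I11Rik). Without the strand setting, these counts cannot show how many reads of the overlaps were lost or placed wrongly. Ckmt1, the ubiquitous mitochondrial creatine kinase, was at most 0.223 normalised FPKM in any library, and Slc16a12, a creatine exporter, averaged 0.323 in controls and 0.409 in TuD libraries, both too low for the test.

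Across the 6 libraries the genes fell in with each other to different degrees, given as Pearson's r of log2 levels with no test, over libraries that share their depth and group. Ckb and Ckmt2 had r = 0.912, and 0.893 after the group means were removed. Gamt followed Ckmt2 (0.742, and 0.906 within groups) and Ckb (0.727, and 0.836 within groups). In all 3 genes TuD replicate 2 was the highest TuD library and TuD replicate 3 the lowest. Ckm and Slc6a8 had r = 0.876, which dropped to 0.520 within groups.

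The tested protein-coding genes whose pattern over the 6 libraries was most like each member were found by the same r. For Ckm they were Anxa7 (0.998), Aplp2 (0.997) and Tnip1 (0.996), and for Slc6a8 they were Tmem268 (0.997), Cyb5d2 (0.996) and C030006K11Rik (0.991). For Ckb they were Tmem214 (0.996), Tspan5 (0.995) and Tmem14c (0.991), for Ckmt2 Rpp25l, Rras (0.991 each) and Arf5 (0.986), and for Gamt Hlx (0.996), Lpcat1 (0.987) and Ruvbl2 (0.985). With 6 points such values are common: 175 genes exceeded 0.95 for Ckm, 127 for Slc6a8, 82 for Ckmt2, 48 for Ckb and 30 for Gamt.

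Of 11 genes of phosphate and nucleotide transport or of phosphate transfer between nucleotides, all were tested. In the TuD group 2 of them rose and 2 fell, while 7 missed the threshold. Of all tested genes 15.0% passed as higher and 14.3% as lower. Their median log2 fold change was 0.02, against 0.01 for all tested genes. With the trend on gene length removed, 2 of the 11 passed as higher and 5 as lower, against 10.3% and 14.1% of all tested genes in that fit. Ak4, a mitochondrial adenylate kinase of the matrix, fell from 9.00, 9.45 and 8.41 normalised FPKM in the controls to 6.05, 5.18 and 5.54 in the TuD libraries (log2 fold change -0.64 ± 0.11 SE, limma adjusted p = 0.00574). Every TuD library was below every control, and the call held in all 20 alternatives.

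Slc25a4, the heart form of the ADP/ATP carrier that works beside Ckmt2, rose from 2995, 3243 and 3414 to 4352, 4428 and 5075 (+0.52 ± 0.15 SE, adjusted p = 0.0316). The TuD libraries were all above the controls, but the call ended in 10 of 20 alternatives, and under quantile normalization the estimate was -0.029 (adjusted p = 0.897). Leaving out any library but TuD replicate 2 ended it (adjusted p = 0.0979, 0.103 and 0.0856 when control replicates 1, 2 or 3 were dropped and 0.0554 and 0.0544 when TuD replicates 1 or 3 were), as did TPM rescaling (+0.13, adjusted p = 0.560), dropping the filter (0.256), the replicate block (0.0505) and the Y-linked covariate (0.0623). The outer-membrane channels differed in direction: Vdac3 rose from 48.5, 52.5 and 53.9 to 68.3, 76.7 and 66.8 (+0.45 ± 0.10 SE, adjusted p = 0.0156), and Vdac1, named after its values were seen, fell from 447, 496 and 463 to 326, 310 and 408 (-0.44 ± 0.13 SE, adjusted p = 0.0420). Vdac3 lost its call without control replicate 1 or 2 (adjusted p = 0.0540 and 0.0535), with the Y-linked covariate (adjusted p = 0.112) and under TPM rescaling (+0.062, adjusted p = 0.727), and under quantile normalization it was +0.29 and passed (adjusted p = 0.0298). Vdac1 lost it without any 1 library except TuD replicate 3 (adjusted p = 0.0754, 0.133 and 0.110 when control replicates 1, 2 or 3 were dropped and 0.118 and 0.0965 when TuD replicates 1 or 2 were), without the filter (adjusted p = 0.109), with the replicate block (adjusted p = 0.0654) and with the Y-linked covariate (-0.20, adjusted p = 0.378). Under TPM rescaling and quantile normalization it passed at -0.83 and -0.81 (adjusted p = 0.00598 and 0.00523). The median over all tested genes under TPM rescaling was -0.36.

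Among 11 genes that supply arginine, glycine or methyl groups for creatine synthesis, 9 were tested, of which 2 fell, 0 rose and 7 missed the threshold. The background over all tested genes was 14.3% lower and 15.0% higher. The list's median log2 fold change was -0.25. Both genes that fell encode serine hydroxymethyltransferases, which make glycine from serine. Shmt1, the cytosolic form, fell from 3.62, 6.31 and 3.64 normalised FPKM to 2.53, 2.49 and 1.72 (-0.84 ± 0.22 SE, adjusted p = 0.0246), and Shmt2, the mitochondrial form, from 20.2, 21.9 and 24.1 to 15.7, 18.4 and 14.7 (-0.43 ± 0.12 SE, adjusted p = 0.0304). Both had groups that did not overlap. Control replicate 2 stood high for Shmt1, as it did for Slc6a8, and without it the adjusted p was 0.0587. The Shmt1 call also ended without the filter (adjusted p = 0.0855), and its estimate was -1.28 under TPM rescaling (adjusted p = 0.00322). The Shmt2 call ended without control replicates 2 or 3 (adjusted p = 0.0852 and 0.112) and without TuD replicates 1 or 3 (adjusted p = 0.0852 and 0.0561), without the filter (0.0653), with the replicate block (0.0529) and with the Y-linked covariate (0.0545). Under TPM rescaling it passed at -0.82 (adjusted p = 0.00220), and the median over all tested genes was -0.36.

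Of 6 genes for M-band proteins and for the ATP-consuming proteins that creatine kinase serves, 5 were tested, of which 1 fell, 1 rose and 3 missed the threshold. That is 1 of 5 in each direction, against 14.3% lower and 15.0% higher over all tested genes. Here the median log2 fold change was -0.17. Atp2a2, the calcium pump of the sarcoplasmic reticulum, fell from 2471, 2543 and 2265 normalised FPKM to 1463, 1364 and 1905 (-0.63 ± 0.16 SE, adjusted p = 0.0224). Myh7, the slow myosin heavy chain, rose from 13.8, 10.3 and 12.1 to 22.6, 14.3 and 27.0 (+0.76 ± 0.22 SE, adjusted p = 0.0359). Neither gene had overlapping groups, and the M-band genes Myom1 and Myom2 had estimates of -0.17 and -0.18 that did not pass.

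Both calls depended on single libraries and on other settings. That of Atp2a2 ended without any 1 library but TuD replicate 3 (adjusted p = 0.0616, 0.0820 and 0.0573 when control replicates 1, 2 or 3 were dropped and 0.0677 and 0.0517 when TuD replicates 1 or 2 were), without the filter (adjusted p = 0.121) and with the Y-linked covariate (-0.35, adjusted p = 0.215). Its estimate was -1.02 under TPM rescaling, against a median of -0.36 over all tested genes, and -1.17 under quantile normalization. Both were past the threshold (adjusted p = 0.00359 and 0.00557). That of Myh7 ended without any 1 library but TuD replicate 2 (adjusted p = 0.0535, 0.119 and 0.0859 when control replicates 1, 2 or 3 were dropped and 0.0989 and 0.0690 when TuD replicates 1 or 3 were), under TPM rescaling (+0.39, adjusted p = 0.208), under quantile normalization (adjusted p = 0.0518) and without the filter (adjusted p = 0.110). With the Y-linked covariate it was +1.14 and passed (adjusted p = 0.0366).

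**Figure D4:**
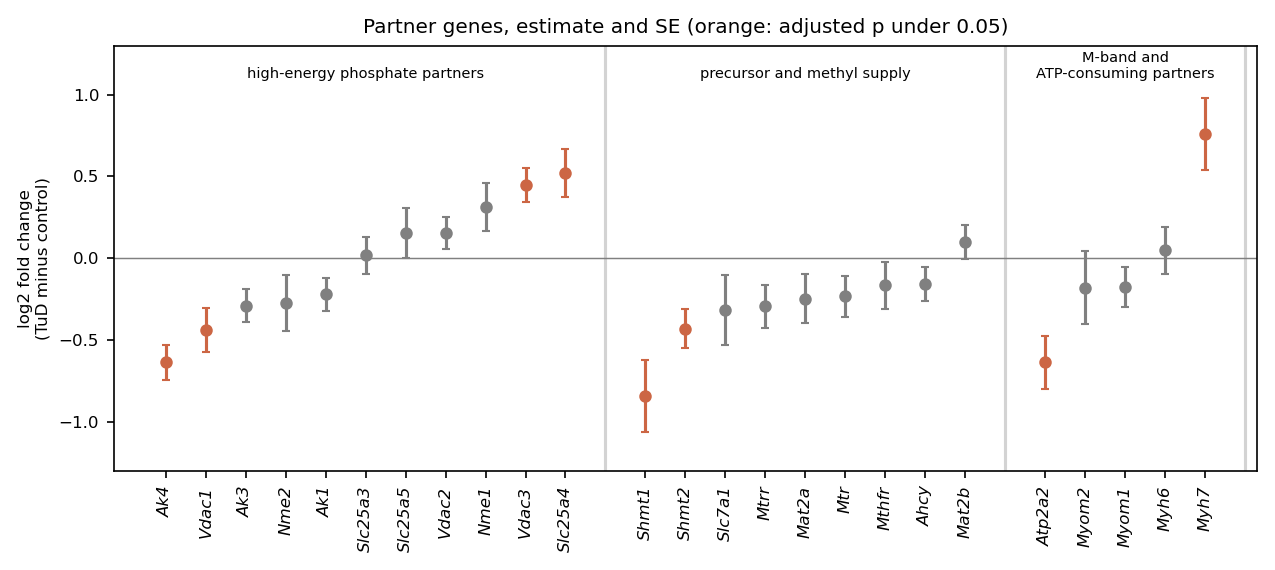
Log2 fold change (y axis, TuD minus control) with its SE for the tested genes of the 3 partner lists, ordered within each list; orange points have an adjusted p under 0.05 and grey points do not. In the first list Ak4 and Vdac1 are lowest and Slc25a4 and Vdac3 highest, in the second only Shmt1 and Shmt2 are orange, and in the third Atp2a2 is lowest and Myh7 highest.

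Other cell types with their own creatine or energy metabolism varied between libraries. The marker counts below stand against 15.0% higher and 14.3% lower over all tested genes. Fibroblast markers (5 genes) summed to 103 to 114 normalised FPKM in controls and 103 to 156 in TuD libraries, with 1 higher (Tcf21) and 1 lower (Col1a2, adjusted p = 0.0578 with the length trend removed). Macrophage markers (5 genes) summed to 84.7 to 101 and 92.7 to 172 with 0 of 5 passing in limma (C1qa had an unadjusted p of 0.0153), and erythroid markers (4 genes) to 1028 to 1422 and 1251 to 3017, with 2 higher (Hba-a1 and Hba-a2). With the length trend removed neither passed: the log2 fold change was +0.47 against +0.94 for Hba-a1 (adjusted p = 0.281) and +0.59 against +1.09 for Hba-a2 (adjusted p = 0.137). Adipocyte markers (5 genes) summed to 0.125 to 0.848 and 3.98 to 11.9, and the only one tested, Cfd, was higher. The 4 atrial markers summed to 122 to 368 and 154 to 214, and 0 of 2 tested passed in limma (Myl7 had an unadjusted p of 0.0390). Their part in the levels of the creatine kinase genes was not tested.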

How the data were processed

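RNA from frozen myocardium was sequenced after library preparation with an NEBNext Ultra kit, per the labels. Per the submitters' processing notes, HISAT2 2.0.5, featureCounts 1.5.0-p3 and mm10 were used; the annotation release and strand setting are not given in the sources used here. The authors deposited FPKM with gene lengths. FPKM times length gave whole reads, within 0.05, for 100% of values.

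FPKM was divided by median-of-ratios size factors over genes with FPKM of at least 1 in all 6 libraries (0.985 to 1.02). Genes with FPKM of at least 1 in at least 3 libraries (10460) were fitted with limma 3.58.1 in R 4.3.3 (lmFit, eBayes with trend) on log2(normalised FPKM + 0.5), two-sided, with p-values adjusted by Benjamini-Hochberg over these genes and a threshold of 0.05. Groups came from the labels. Gatm was fitted without the filter. Alternatives changed scaling, pseudocount, filter, variance model, test (limma-voom on the recovered reads), gene length (lowess, span 0.3), replicate block, a Y-linked covariate, and left out each library. One further scaling, with size factors over all genes above 0, was chosen after seeing the data. The fit was also run on simulated reads with the same dispersion for every gene, no length trend and no Y-linked split. That run therefore cannot show how the fit behaves under these features of the data.

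Transcript lengths and 3' UTRs came from GENCODE M21, miRNAs from RefSeq, matched by name for both arms. Python 3.11.15, scipy 1.17.1 and matplotlib 3.10.9 were used. Named genes were the 6 members, up to 4 passing genes of each list by p-value and the 3 genes most correlated with each tested member; Vdac1, the marker genes named singly and list genes named as not passing fall outside this rule, and their values were seen before they were chosen. The members and lists were chosen with earlier results of these data known. A few genes of the partner lists are not reported here, and list counts and medians leave them out.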

Additional observations from a re-analysis of the deposited data

How the results depend on the processing

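Over 20 alternatives for each tested member, Ckm and Slc6a8 had negative estimates throughout. Ckm did not pass in the reported fit and passed with estimates of -0.74 (TPM), -0.80 (quantile normalization), -0.41 (length correction) and -0.35 (filter at FPKM 5, robust variance, no mean-variance trend, and limma-voom), and its estimates ran from -0.41 to -0.31 with 1 library left out. Slc6a8 missed the threshold at -0.46 without a filter (adjusted p = 0.0957), at -0.40 after the length correction (0.0670), at -0.43 with the Y-linked covariate (0.181) and at -0.33 to -0.58 over the fits that left out 1 library, of which that without control replicate 1 passed (0.0340). Ckb reversed to -0.087 (TPM) and -0.25 (Y-linked covariate) and ran from 0.10 to 0.57 with 1 library left out. Ckmt2 reversed to -0.24 (TPM), -0.44 (quantile), -0.16 (length correction) and -0.030 (Y-linked covariate), and Gamt ran from -0.33 to 0.25 with 1 library left out. Slc25a4 reversed to -0.029 under quantile normalization. The TPM estimates stand against a median of -0.36 over all tested genes in that fit. Genes called higher numbered 1565 in the reported fit and 438 (TPM), 1010 (no filter), 651 (Y-linked covariate) and 882 to 1703 (1 library left out); genes called lower numbered 1498, and 4202, 956, 529 and 762 to 1610. The causes were not tested. Leaving out a library or adding a covariate leaves fewer degrees of freedom. Without TuD replicate 3 the counts were 1703 higher and 1610 lower, above those of the reported fit. Dropping the filter adds genes to the adjustment. Dropping the filter also changed the SE, for example from 0.147 to 0.242 for Slc25a4 and from 0.120 to 0.110 for Shmt2.

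Same-numbered control and TuD libraries correlated at 0.0637, 0.0882 and -0.0554 in their deviations from the group means, and control replicates 1 and 3 each correlated more with another number, so the numbers were not taken as pairs. With the replicate block 1462 genes were called higher and 1199 lower, Ckm had -0.35 (adjusted p = 0.0823), Slc6a8 -0.46 (0.0722, no longer past the threshold), Ckb 0.30, Ckmt2 0.15, Gamt -0.05 and Gatm 0.33. Depth limited Gatm (23 to 53 reads) and Gamt (81 to 171 reads) most.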
